A study of Mus musculus with 4 samples.

Results

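The genes described here encode 8 surface proteins that restrain T cells or act through an inhibitory partner, together with the 2 ligands of PD-1. They are Pdcd1, Cd274, Pdcd1lg2, Ctla4, Havcr2, Lag3, Tigit, Btla, Cd160 and Cd200. They were taken by symbol from the deposited gene table, where each of the 10 symbols had a single row among 52636 genes. All 10 were protein-coding, averaged 1 FPKM or more across libraries and so entered the test of 10562 genes. FPKM is the number of sequenced fragments scaled by gene length and by library total, so levels can be set side by side between genes.

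The libraries came from mouse Th17 cells (helper T cells known for interleukin 17) made in culture from naive cells of the C57BL/6 strain. There were 2 libraries of the genotype labelled PP2A WT and 2 of the genotype labelled PP2A cKO, described as biological replicates. How mice or cultures were separated is not given in the labels, nor which PP2A subunit was targeted or by what driver, so p-values reflect only how far these libraries differ, which may be technical. Both genotypes had the same culture, 2 days with irradiated antigen presenting cells (3 for each naive cell), anti-CD3 and anti-CD28 (each at 2 µg/ml), IL-6 (20 ng/ml) and TGF-β1 (2 ng/ml). IL-4 and IFN-γ were blocked by antibodies (each at 10 µg/ml), and all cells then received PMA (50 ng/ml) and ionomycin (500 ng/ml) for 4 h, so no resting cells were measured. The study asked whether Th17 differentiation needs PP2A, a serine/threonine phosphatase.

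Inhibitory receptors appear on T cells after activation and dampen signals from the T cell receptor and CD28. PD-1 binds PD-L1 and PD-L2 and recruits tyrosine phosphatases to its cytoplasmic tail. CTLA-4 takes CD80 and CD86 away from CD28, LAG-3 binds MHC class II, TIGIT competes with CD226 for PVR, and BTLA and CD160 share the ligand HVEM. PD-L1 is widely inducible by interferons, while PD-L2 is found mostly on antigen presenting cells and some activated T cells.

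Depth and labels were looked at over all libraries. The deposited values rest on 18517487 to 20387948 gene-assigned reads per library. Ppp2ca, the main catalytic subunit gene of PP2A, had 42.2 and 50.1 FPKM in WT and 41.8 and 34.5 in cKO (limma, adjusted p = 0.36). Ppp2r1a, which encodes a scaffold subunit, had 99.9 and 100.1 FPKM in WT and 86.4 and 110 in cKO (limma, adjusted p = 0.91), so the directions below rest on the labels. All 9 T cell markers were above the filter and summed to 999.7 and 1002 FPKM in WT and 1101 and 1138 in cKO. All 7 Th17 markers were above it too, with sums of 4195 and 3854 FPKM in WT and 3083 and 2976 in cKO. Most of each sum was Il17f, so the sums say little about the other markers. Of these 7, Il17a, Il17f, Ccr6, Il23r and Rora had both cKO values below both WT values, beside 28.7% of all tested genes. Of the rest, 1 had both cKO values above, beside 27.2%, and 1 overlapped. None of the 7 passed the threshold by limma. By voom on recovered reads 1 was higher and 1 lower, beside 2.52% and 3.33% of tested genes. The part of these marker differences in the values below was not tested. The cKO libraries differed from each other, and the difference, replicate 1 minus replicate 2, followed transcript GC content. Its medians ran from 0.16 in the most AT-rich bin of genes to -0.32 in the most GC-rich bin.

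The 3 genes that passed the test were Pdcd1lg2, Cd274 and Havcr2, all higher in cKO, and the 250 bases before their RefSeq start sites (GRCm38.p6, plus strand) are shown as the sequence context of the members that rose together. Capitals mark matches to the AP-1 pattern TGANTCA or to the NFAT core GGAAA. Those of Cd274 and Pdcd1lg2 lie on the same chromosome at chr19:29367188-29367437 and chr19:29410669-29410918, and that of Havcr2 at chr11:46454681-46454930.
Cd274: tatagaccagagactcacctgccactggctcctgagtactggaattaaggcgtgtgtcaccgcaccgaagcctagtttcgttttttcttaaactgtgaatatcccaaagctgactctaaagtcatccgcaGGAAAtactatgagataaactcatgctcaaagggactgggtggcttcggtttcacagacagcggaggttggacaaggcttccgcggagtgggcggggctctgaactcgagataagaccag
Pdcd1lg2: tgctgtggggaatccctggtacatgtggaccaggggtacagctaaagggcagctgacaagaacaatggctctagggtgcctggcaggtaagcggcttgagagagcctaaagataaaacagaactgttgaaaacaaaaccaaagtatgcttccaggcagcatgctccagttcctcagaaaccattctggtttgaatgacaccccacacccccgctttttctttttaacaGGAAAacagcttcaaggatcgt
Havcr2: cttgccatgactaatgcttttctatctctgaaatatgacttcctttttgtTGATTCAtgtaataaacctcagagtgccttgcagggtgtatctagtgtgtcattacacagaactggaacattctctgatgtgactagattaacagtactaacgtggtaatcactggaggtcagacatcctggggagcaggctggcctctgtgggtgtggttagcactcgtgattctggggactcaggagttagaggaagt

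Cd274 and Pdcd1lg2 each held 1 GGAAA match, from -120 to -116 and from -22 to -18 relative to the start, and Havcr2 held 1 AP-1 match from -200 to -194. RefSeq windows were found for 9 of the 10 genes. On either strand, GGAAA was present in 6 of the 9 genes and in 55.6% of 32851 windows of all genes. TGANTCA was present in 1 of 9 genes (Havcr2) and in 6.75% of windows. The GAS pattern TTCNNNGAA was in 1 of 9 (Cd160, at the second of its listed start sites) and in 7.02% of windows. The patterns searched for the interferon response element and for NF-kB, present in 2.98% and 1.41% of windows, were in 0 of the 9, and any NF-kB match would also hold the NFAT core. These are matches of letters in a short window.

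Both ligand genes rose in cKO. Pdcd1lg2, which encodes PD-L2, had 6.77 and 7.60 FPKM in WT replicates 1 and 2 and 21.3 and 19.2 in cKO replicates 1 and 2. Both cKO libraries lay above both WT libraries, and the lowest cKO value was 2.52 times the highest WT value. The means were 7.19 ± 0.588 and 20.2 ± 1.499 FPKM (SD, n = 2). The difference on the log2(FPKM + 1) scale was 1.38 ± 0.10 (SE) (limma, adjusted p = 0.0206). In bulk RNA, more RNA per cell and more cells of a kind cannot be told apart, here or for any gene below.

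Cd274, which encodes PD-L1, had 22.7 and 20.7 FPKM in WT and 48.9 and 44.4 in cKO. The groups were again separate, and the mean rose 2.15-fold, from 21.7 ± 1.48 to 46.7 ± 3.13 FPKM (SD, n = 2). The log2 fold change was 1.07 ± 0.11 (limma, adjusted p = 0.0342). The call for Cd274 was lost without WT replicate 1 or 2 (adjusted p = 0.0875 and 0.157), while Pdcd1lg2 passed without any single library. With all genes above 0 tested, no gene in the table passed, and adjusted p was 0.161 for Cd274, 0.157 for Pdcd1lg2 and 0.168 for Havcr2.

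Within each library, the Pdcd1lg2 level was 0.298 and 0.368 of the Cd274 level in WT and 0.436 and 0.432 in cKO. PD-L1 message thus stayed the more abundant in every library, by a smaller margin in cKO. These ratios are given as values: the exact permutation test, used here for single quantities, gives no two-sided p below 0.333 with 2 libraries a side, and no model was fitted to them.

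Pdcd1, the gene of their receptor PD-1, was already abundant in WT, with 128.3 and 128.1 FPKM, and had 180 and 164 in cKO. The groups did not overlap, and the mean was 1.34 times as high in cKO. The log2 fold change of 0.42 ± 0.10 did not pass (limma, adjusted p = 0.118; voom on recovered reads, adjusted p = 0.078). Set against the sum of both ligand levels, the Pdcd1 level was 4.35 and 4.54 in WT and 2.56 and 2.58 in cKO.

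**Figure D1:**
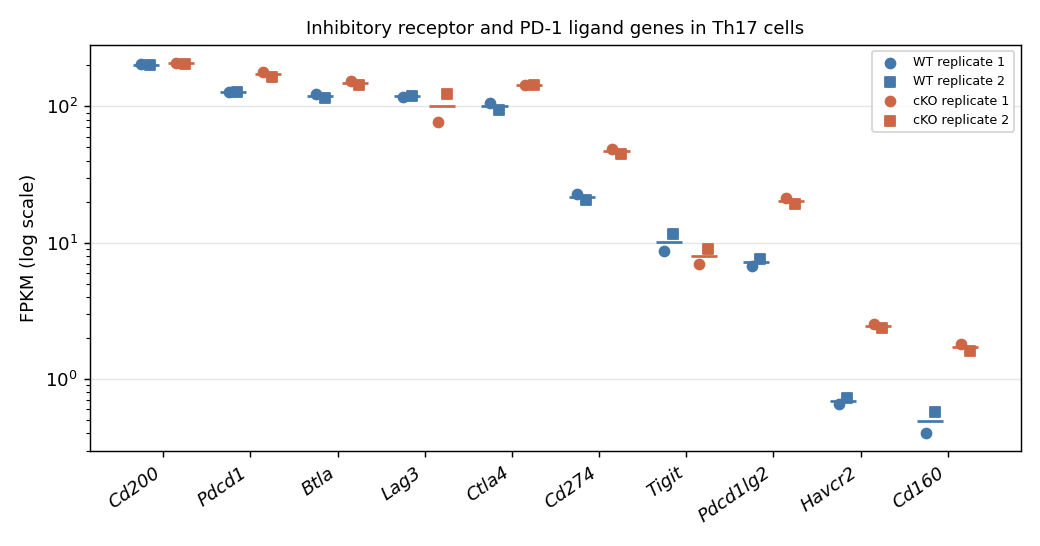
FPKM on a log scale (y axis) of the 10 genes, ordered by WT mean (x axis), in each WT library (blue) and cKO library (orange), with circles for replicate 1, squares for replicate 2 and bars at the genotype means. Cd274 lies at 22.7 and 20.7 in WT and 48.9 and 44.4 in cKO, and the cKO circle of Lag3 at 76.3 stands below its other 3 points.

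Havcr2 and Cd160 were at the low end. Havcr2, which encodes TIM-3, had 0.657 and 0.731 FPKM in WT and 2.53 and 2.37 in cKO, from 35 and 38 reads and 140 and 125 reads. Its exact 95% Poisson intervals did not meet between genotypes, the highest WT bound being 1.00 and the lowest cKO bound 1.97 FPKM. These intervals cover counting error only, since reads without molecular identifiers are not independent molecules.

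The mean of Havcr2 was 3.53 times as high in cKO, which the log2(FPKM + 1) scale compresses to 1.03 ± 0.11 (limma, adjusted p = 0.0375). voom, a limma fit on the reads recovered from FPKM and gene length, gave 1.77 ± 0.23 (adjusted p = 0.011). Havcr2 was lost without WT replicate 1, WT replicate 2 or cKO replicate 1 (adjusted p = 0.0778, 0.0815 and 0.0572) and after scaling to TPM (0.0516). Its WT mean of 0.694 FPKM was under the filter, so Havcr2 was tested through its cKO level, as was Cd160.

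Cd160, a glycolipid-anchored receptor known from NK and CD8 T cells, had 0.406 and 0.575 FPKM in WT and 1.83 and 1.60 in cKO. That was 21 and 29 reads against 98 and 82, with separate groups and a mean 3.49 times as high in cKO. It missed the threshold in the main test (log2 fold change 0.87 ± 0.13, limma, adjusted p = 0.0591). It passed by voom (1.77 ± 0.29, adjusted p = 0.0195), with protein-coding genes only (adjusted p = 0.0161) and after GC correction (0.0371). Cd160 shares 68 exonic bases with Pdzk1, which stayed at 0.0415 to 0.116 FPKM.

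Ctla4 had 106 and 93.7 FPKM in WT and 143.9 and 143.7 in cKO. The cKO libraries nearly coincided and lay above both WT libraries, with a mean 1.44 times as high. Ctla4 missed the threshold (log2 fold change 0.52 ± 0.11, limma, adjusted p = 0.0885) and passed by voom (0.49 ± 0.11, adjusted p = 0.0418). Relative to Cd28, its costimulatory rival, Ctla4 stood at 1.12 and 0.904 in WT and 1.03 and 1.18 in cKO, so these ratios overlapped.

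Btla had 124 and 116 FPKM in WT and 152 and 144 in cKO. Its groups were separate, but the log2 fold change of 0.30 ± 0.10 did not pass (limma, adjusted p = 0.201). Cd200, a surface glycoprotein that signals through CD200R1 on other cells, was the most abundant of the 10, with 204 and 199.9 FPKM in WT and 207 and 205 in cKO. Its cKO libraries were above its WT libraries by the smallest margin of the set, 0.03 ± 0.10 on the log2 scale (limma, adjusted p = 0.871). The sign for Cd200 turned with quantile or TPM scaling, GC correction and voom (-0.11, -0.06, -0.03 and -0.0067).

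Lag3 and Tigit had negative fold changes. Lag3 had 118 and 119.5 FPKM in WT and 76.3 and 124 in cKO, so cKO replicate 2 lay with the WT libraries and cKO replicate 1 far below them. The log2 fold change was -0.29 ± 0.23 (limma, adjusted p = 0.519). It was 0.06 without cKO replicate 1 (adjusted p = 0.518) and -0.63 without cKO replicate 2 (adjusted p = 0.0116).

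The Lag3 transcript had the highest GC content of the set, 59.9%. Between the cKO libraries Lag3 differed by -0.69 on the log2(FPKM + 1) scale, and the 371 tested genes within 1 percentage point of its GC content had a median of -0.32 and a 5% to 95% range of -0.74 to 0.29. After GC correction the log2 fold change of Lag3 was -0.17 (adjusted p = 0.497). Ptms, the neighbouring gene 1976 bases away, had 322 and 305 FPKM in WT and 274 and 370 in cKO, with cKO replicate 1 again the lowest library. Cd4, the nearest tested gene on the other side, had 128 and 126 FPKM in cKO, with cKO replicate 1 the highest library. The part of GC content in the Lag3 value was not tested beyond these values.

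Tigit had 8.65 and 11.6 FPKM in WT and 6.95 and 9.05 in cKO, from 136 to 213 reads per library. The groups overlapped, and the log2 fold change of -0.30 ± 0.18 did not pass (limma, adjusted p = 0.397). The other 8 genes differed by at most 0.14 between the cKO libraries on the log2 scale, Tigit by 0.34 and Lag3 by 0.69.

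**Figure D2:**
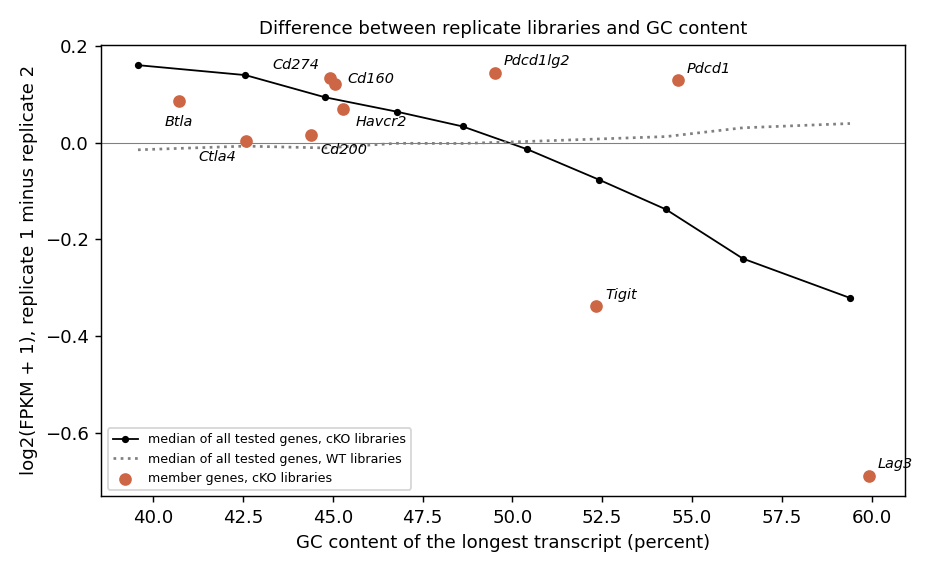
Difference of log2(FPKM + 1) between replicates 1 and 2 (y axis) against GC content of the longest transcript in percent (x axis), for the 10 genes in cKO (orange) and as the median of equal bins of all tested genes in cKO (black line) and in WT (dotted line). The cKO line falls from 0.16 to -0.32, and Lag3 lies at -0.69 and Tigit at -0.34.

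As a set, 3 of 10 genes were higher and 0 lower (limma, adjusted p under 0.05), beside 0.814% of all tested genes higher and 0.256% lower. The members and the gene lists below were chosen with earlier results of these data known. Counts set beside the share of all tested genes, here and below, are therefore no test of a set. At an unadjusted p under 0.05, 7 were higher and 0 lower, beside 9.56% and 10.3% of tested genes. By voom 5 members passed as higher and 0 as lower, beside 2.52% and 3.33% of genes. In 8 of 10 both cKO values were above both WT values and in 0 both were below, beside 27.2% and 28.7% of tested genes. Havcr2 and Cd160 are in these counts although they were tested only through their cKO level, which favours a higher call. With a minimum mean of 5 FPKM, which leaves both out, 2 of 8 members were higher, beside 0.909% of 6931 genes. These 8 are also the members with a WT mean of at least 1 FPKM. In 6 of them both cKO values were above both WT values, beside 2717 of the 10353 tested genes with such a WT mean. Over all 10 the median log2 fold change was 0.47, and that of all tested genes -0.003.

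The count moved with the libraries. Whichever cKO replicate was left out, the variance came from the WT pair alone. Why the fits without a cKO replicate differed was not tested. It was 1 (Pdcd1lg2) without WT replicate 1, beside 0.625% of genes, and 1 (Pdcd1lg2) without WT replicate 2, beside 0.464%. Without cKO replicate 1 it was 2 (Pdcd1lg2 and Cd274), beside 1.4%. Without cKO replicate 2, when the variance came from the WT pair, 7 were higher and Lag3 was lower, beside 13.2% and 15.3% of genes.

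**Figure D3:**
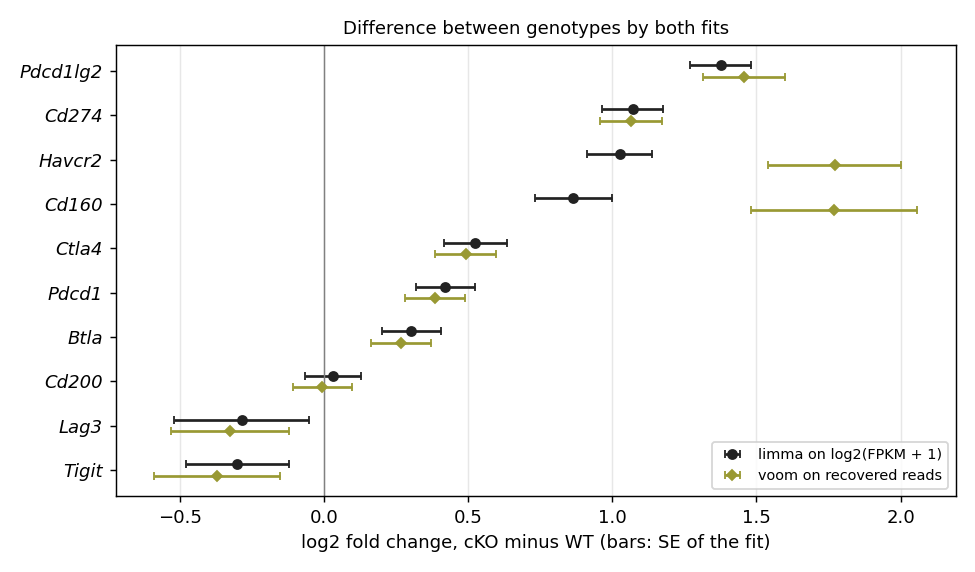
Log2 fold change, cKO minus WT, with the SE of the fit as bars (x axis) for each gene (y axis), by limma on log2(FPKM + 1) (circles) and by voom on recovered reads (diamonds). The fits lie close together except for Havcr2 (1.03 and 1.77) and Cd160 (0.87 and 1.77), the genes with the fewest reads.

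By level, the WT order was Cd200, Pdcd1, Btla, Lag3, Ctla4, Cd274, Tigit, Pdcd1lg2, Havcr2 and Cd160. In this order only Btla and Lag3 had overlapping libraries among neighbours. In cKO, Ctla4 stood above Lag3 and Pdcd1lg2 above Tigit, and only Btla and Ctla4 overlapped. The 10 genes spanned 0.490 to 202 FPKM in WT means and 1.71 to 206 in cKO means, and their sum was 719 and 698 FPKM in WT and 841 and 857 in cKO.

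The chromosomal neighbours of the genes that rose were looked at next. Cd274 (chromosome 19, 29367455 to 29388095, GRCm38) and Pdcd1lg2 (29410919 to 29471157) lie 22824 bases apart on the plus strand. Plgrkt, a plasminogen receptor gene 65 bases before Cd274, had 3.26 and 2.85 FPKM in WT and 4.34 and 4.49 in cKO (log2 fold change 0.42, limma, adjusted p = 0.112). Ric1, the next tested gene after Pdcd1lg2, had 7.76 and 7.43 FPKM in WT and 6.61 and 6.23 in cKO (-0.21, adjusted p = 0.267). The ligand pair thus stood between neighbours that did not pass, and Ric1 had the opposite sign. An antisense gene shares 511 exonic bases with Cd274 in GENCODE M21 and had no row in the deposited gene table. As the strand setting was not given, any reads of that gene from the shared bases could be counted in Cd274.

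Havcr2 (chromosome 11, 46454935 to 46481255) stood beside its family member Timd2, which encodes TIM-2, at a distance of 188 kb. Timd2 had 2.52 and 4.69 FPKM in WT and 0.624 and 0.520 in cKO, below WT in both libraries, and did not pass (log2 fold change -1.51 ± 0.24, limma, adjusted p = 0.0624). These neighbouring TIM genes therefore had opposite signs. Cd4, the nearest tested gene before Lag3, had 104 and 105 FPKM in WT and 128 and 126 in cKO (0.28, adjusted p = 0.196).

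Among 18 genes listed as ligands, counter-receptors or competitors for a partner of the members, 11 were tested. Of these, 2 were higher and 0 lower (limma, beside the 0.814% and 0.256% of all tested genes). Cd80 and Cd200r1 had WT means under the filter and were tested only through their cKO level, and of the other 9 genes 1 was higher. The first was Cd80, the B7 ligand shared by CD28, CTLA-4 and PD-L1, with 0.240 and 0.277 FPKM in WT and 1.91 and 1.64 in cKO. It rose by 1.14 ± 0.13 on the log2 scale (limma, adjusted p = 0.0391) from a WT level under the filter. The other was Lgals3, the gene of galectin-3, a LAG-3 ligand, with 28.0 and 24.9 FPKM in WT and 60.8 and 52.6 in cKO (1.07 ± 0.12, adjusted p = 0.0388).

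Cd86, the companion of CD80, had 1.09 and 1.37 FPKM in WT and 2.46 and 2.52 in cKO, with separate groups and no call (limma, adjusted p = 0.0734). Cd200r1, the CD200 receptor gene, had 0.301 and 0.772 FPKM in WT and 1.60 and 1.47 in cKO (adjusted p = 0.122). Lgals9, a TIM-3 ligand, had 14.7 and 16.8 FPKM in WT and 20.8 and 25.2 in cKO (adjusted p = 0.127). Tnfrsf14, which encodes HVEM, overlapped between genotypes, and Pvr stayed at 4.47 to 4.84 FPKM. In all, 7 of these 11 genes had both cKO values above both WT values (5 of 9 without Cd80 and Cd200r1), and 1, Cd96, had both below, beside 27.2% and 28.7% of tested genes. The median log2 fold change of the 11 was 0.36.

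**Figure D4:**
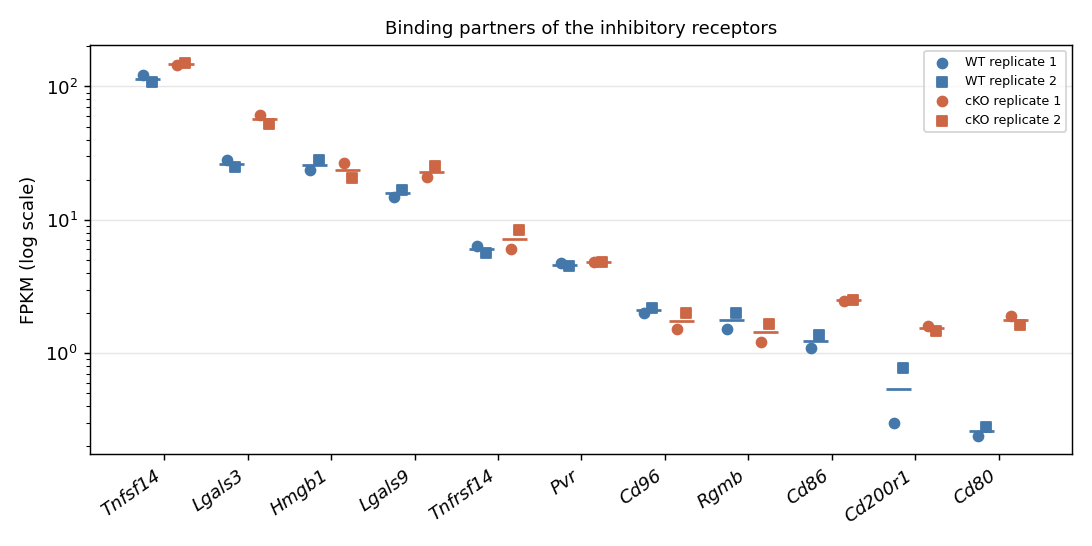
FPKM on a log scale (y axis) of the 11 tested genes listed as ligands, counter-receptors or competitors, ordered by WT mean (x axis). Each WT library is in blue and each cKO library in orange, with bars at the genotype means. Cd80 lies at 0.240 and 0.277 in WT and 1.91 and 1.64 in cKO, and Pvr keeps between 4.47 and 4.84 in all libraries.

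Genes such as Cd80, Cd86, Cd274 and Pdcd1lg2 are also made by antigen presenting cells, which were part of the culture. None of 8 B cell markers reached a mean of 1 FPKM, and their summed level was 1.30 and 0.985 FPKM in WT and 1.08 and 1.29 in cKO. Of 11 macrophage and monocyte markers 1 did (Cd68), C1qa, C1qb and C1qc were listed at 0, and the sums were 1.94 and 2.31 FPKM in WT and 1.77 and 1.44 in cKO. Of 8 dendritic cell markers 1 did, Ccr7, which T cells also express. Clec9a, Siglech and Cd209a were listed at 0, and the sums were 36.1 and 31.3 FPKM in WT and 20.6 and 27.8 in cKO. Without Ccr7 the other 7 dendritic cell markers summed to 0.562 and 0.445 FPKM in WT and 0.654 and 0.641 in cKO, higher in both cKO libraries. The part of such cells in the rise of the ligand genes was not tested.

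The 5 genes of the MHC class II and Cd74 list summed to 54.1 and 41.5 FPKM in WT and 80.9 and 119 in cKO, through Cd74, the invariant chain gene, at 37.8 and 27.5 FPKM in WT and 67.0 and 100.35 in cKO (limma, adjusted p = 0.0757). By voom 1 of the 3 tested genes of this list was higher, beside 2.52% of all tested genes. H2-Ab1 had 14.8 and 12.5 FPKM in WT and 12.8 and 17.5 in cKO, with overlapping groups. H2-Eb1 lay at 1.08 to 1.28 FPKM, also overlapping, and H2-Aa at 0.0525 to 0.245 FPKM. Whether Cd74-expressing cells had a part in that rise was not tested either. Of 7 CD8 T cell and NK cell markers 1 reached the filter (Cd8b1), Ncr1 and Klrb1c were listed at 0, and the sums were 8.62 and 8.92 FPKM in WT and 10.3 and 11.5 in cKO. The 6 gamma-delta T cell markers summed to 0.267 to 0.414 FPKM, with Tcrg-C4 at 0.

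Among 24 other inhibitory receptors, 13 were tested and 0 passed in either direction by limma. At an unadjusted p under 0.05 (limma), 3 were higher and 0 lower, beside 9.56% and 10.3% of tested genes. By voom 2 were higher and 0 lower, beside 2.52% and 3.33%. The median log2 fold change of the 13 was 0.08. The most changed was Lilrb4a, an immunoglobulin-like receptor gene, with 2.17 and 1.39 FPKM in WT and 3.87 and 4.45 in cKO (0.90, adjusted p = 0.0736). Of these 13 genes, 4 had separate groups with cKO higher and 2 with cKO lower, which for the higher genes is near the 27.2% of all tested genes (28.7% lower). Cd200r1 is among these 4 and among the 3 with an unadjusted p under 0.05, and was tested only through its cKO level. Of the other 12 genes, 3 had separate groups with cKO higher. Cd200r1, Cd96 and Tnfrsf14 are also in the list of ligands and counter-receptors. Among 12 costimulatory receptors and ligands, 11 were tested and 0 passed by limma, with a median of 0.25. At an unadjusted p under 0.05 (limma), 6 were higher and 2 lower, beside 9.56% and 10.3% of tested genes. By voom 2 were higher and 1 lower, beside 2.52% and 3.33%. Of these 11 genes, 7 had separate groups with cKO higher and 2 with cKO lower, beside 27.2% and 28.7%. The most changed there was Cd40lg, which encodes CD40 ligand, with 492 and 412 FPKM in WT and 718 and 704 in cKO (0.66, adjusted p = 0.0798).

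Signalling molecules of the inhibitory receptors were all tested, 19 of 19, and 0 passed by limma or by voom, with a median of 0.03. At an unadjusted p under 0.05 (limma), 1 was higher and 2 lower, beside 9.56% and 10.3% of tested genes. Of the 19, 7 had separate groups with cKO higher and 5 with cKO lower, beside 27.2% and 28.7%. The phosphatase genes Ptpn6 and Ptpn11, which encode SHP-1 and SHP-2, had adjusted p of 0.578 and 0.691 (limma). Sh2d1a, an adaptor gene of SLAM receptors, was the most changed, with 6.00 and 6.56 FPKM in WT and 10.2 and 8.25 in cKO (0.49, adjusted p = 0.127). Cmtm6, whose product keeps PD-L1 at the cell surface, had 49.0 and 47.2 FPKM in WT and 51.6 and 48.1 in cKO (0.05, adjusted p = 0.791).

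Of 33 transcription factors linked to inhibitory receptor genes, 28 were tested. Of these, 3 were higher and 0 lower by limma, beside 0.814% and 0.256% of all tested genes. At an unadjusted p under 0.05 (limma), 11 were higher and 1 lower, beside 9.56% and 10.3%. By voom 7 were higher and 1 lower, beside 2.52% and 3.33%. Tbx21, the T-bet gene, had 5.77 and 5.74 FPKM in WT and 13.9 and 18.1 in cKO (1.32 ± 0.14, limma, adjusted p = 0.0356). Maf had 11.9 and 11.4 FPKM in WT and 23.0 and 21.4 in cKO (0.87, adjusted p = 0.0356). Id3, an inhibitor of E proteins, had 18.005 and 17.4 FPKM in WT and 32.6 and 29.1 in cKO (0.77, adjusted p = 0.0492). Tox, a factor of exhausted T cells, lay at 0.181 to 0.346 FPKM and was not tested. Of the 28, 17 had separate groups with cKO higher and 4 with cKO lower, beside 27.2% and 28.7% of all tested genes, and the median was 0.22.

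The genes with the pattern closest to each raised member were found by the Euclidean distance between log2(FPKM + 1) values centred over the 4 libraries. For Cd274 they were Ifi203, Lgals3 and Igtp, at distances of 0.0533, 0.0556 and 0.115. For Pdcd1lg2 they were Spp1, Gm8995 and Car2, at 0.0611, 0.0766 and 0.141, and for Havcr2 Eif2ak2, Cd80 and Parp14, at 0.119, 0.124 and 0.125. Cd274 and Pdcd1lg2 were 0.364 apart and Cd274 and Havcr2 0.153, so no raised member had another raised member among its closest 3. The log2(FPKM + 1) scale compresses changes at low levels, as for Havcr2, so these distances depend on that scale. Ifi203 belongs to a family of similar genes, so its value is uncertain.

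**Figure D5:**
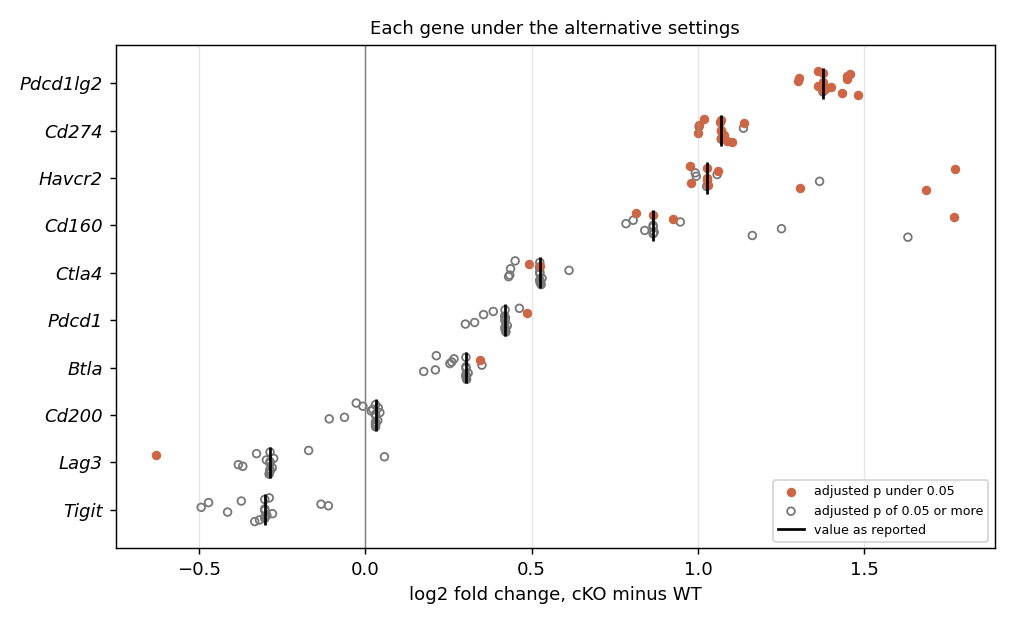
Log2 fold change, cKO minus WT (x axis), of each gene (y axis) under up to 16 alternative settings, filled where the adjusted p was under 0.05, with a black bar at the reported value. Pdcd1lg2 ranges from 1.30 to 1.48, and Lag3 ranges from -0.63 to 0.06.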

How the data were processed

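RNA sequencing values of 2 WT and 2 cKO libraries were used. The authors deposited FPKM per gene with the gene length; the submitters' processing notes list featureCounts 1.5.0-p3, GRCm38 and mm10. Aligner, annotation release and strand setting were not given in the sources used here; without strand, reads of overlapping or antisense genes could not be separated. The main test was limma 3.58.1 (R 4.3.3) on log2(FPKM + 1) for the 10562 genes averaging 1 FPKM or more, with a variance trend, no block, and two-sided Benjamini-Hochberg adjustment over all of them at 0.05. FPKM times gene length gave whole reads for 100% of values above 0, within 0.01 read. They summed to 19347055, 18517487, 20387948 and 19521977 (the WT pair, then the cKO pair), and these reads went into voom. In the same order, the sums were 98.9%, 96.9%, 100.3% and 100.7% of the library totals implied by FPKM. The scaling of FPKM and that of voom thus differ slightly between genotypes. The chi-square per degree of freedom was 4.63 between the WT and 27.9 between the cKO libraries, so none was a copy. The procedure was run on simulated reads with the same spread in every library and no GC trend. The cKO pair differs from that setting, so the simulation does not show how reliable the calls are here.

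The members and gene lists were chosen with earlier results of these data known. Named by rule were the members, Ppp2ca, Ppp2r1a, up to 3 list genes past the threshold per direction or else the most changed, the nearest tested gene on each side of a member, and the 3 closest in pattern. Other partner, marker and signalling genes were named after their values were seen. Neighbours not printed did not pass. Values of a Th17 marker are not reported here. Of the gene IDs, 99.56% were in GENCODE M21, which gave overlaps and GC content. Start-site sequences are from RefSeq (GRCm38.p6).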

Additional observations from a re-analysis of the deposited data

How the results depend on the processing

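Over the 10 genes and up to 16 settings, 135 of 158 fold changes kept their direction and side of the threshold, 9 lost a call, 9 gained one and 5 changed sign. The sign changes were those of Cd200 with quantile normalization (-0.11), TPM (-0.062), voom (-0.0067) and GC correction (-0.027), and of Lag3, which ran from -0.6296 to 0.05797 with a library left out. A minimum of 5 FPKM left Havcr2 and Cd160 untested. The number of members higher was 0 with no filter, where limma called 0 genes higher and 0 lower (1543 and 1469 at an unadjusted p under 0.05, 7 and 0 of them members), and 5 by voom. With a single library left out it ran from 1 to 7, and that of members lower from 0 to 1.

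Over all genes, 86 were higher and 27 lower. Lower genes numbered 15 with a pseudocount of 0.1, and higher genes 52 with TPM. Both counts moved with voom (266 and 352), with protein-coding genes only (259 and 241) and with GC correction (251 and 257), and the share of higher calls fell from 76.1% to 43.0%, 51.8% and 49.4%. It was 69.3% with TPM, and 65.6% with a minimum of 5 FPKM. With a library left out, higher genes ran from 49 to 1390 and lower genes from 6 to 1614. The cause was not tested. With the replicate number as a block, 154 genes were higher and 73 lower, and the same 3 members passed. Same-numbered libraries did not deviate together (correlation -0.093). With 2 libraries a genotype and the GC-linked difference within cKO, this cannot show whether the numbers pair the samples.

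With 2 libraries a genotype, the spread rests on 2 residual degrees of freedom and on what limma borrows from other genes. Depth limits Havcr2 and Cd160, with 21 to 140 reads per library.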
